A study of Arabidopsis thaliana with 36 samples.

Results

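Xylem differentiation was followed through 10 genes chosen by locus: the transcription factor genes VND7 (AT1G71930), MYB46 (AT5G12870) and MYB83 (AT3G08500), and the secondary wall cellulose synthase genes CESA4 (IRX5, AT5G44030), CESA7 (IRX3, AT5G17420) and CESA8 (IRX1, AT4G18780). The others are the xylan gene IRX9 (AT2G37090), the cell surface gene FLA11 (AT5G03170), and the peptidase genes XCP1 (AT4G35350) and XCP2 (AT1G20850). They are 10 of the 32678 genes in the count files, and all 10 passed the filter on low counts, as did 20939 genes in all. The rule names loci and uses no measured value, but the genes were chosen with earlier results of these data known, so the direction they share is no independent evidence.

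Transcripts were counted by stranded single-read mRNA sequencing in sections of roots from Arabidopsis thaliana seedlings (Col-0) that were 7 days old at harvest, after 6 days of growth on solid medium. Roots were cut free of the shoot, hypocotyl included, and of about 3 mm at the tip. The genotypes were CASP1::shy2-2/slr-1 and slr-1, and both carry slr-1, a stabilised form of the auxin response repressor IAA14 that blocks lateral root formation. CASP1::shy2-2/slr-1 adds shy2-2, a stable version of another such repressor, IAA3 (SHY2). The CASP1 promoter drives it in the differentiating endodermis, the cell layer around the vascular cylinder and its pericycle. Each genotype was sampled at 2, 4, 8, 16 and 24 h after transfer to 10 µM NAA, a synthetic auxin, and without NAA (control, 0 h), which makes 12 groups of 3 libraries, or 36. Transfers were staggered so that harvest fell at 1 age. The labels give a single control group per genotype and not its hours on control plates, so NAA and the hours since transfer cannot be told apart. No genotype without slr-1 was sequenced. The labels give neither plants per library nor whether the 3 libraries of a group came from separate cultures, so p-values measure the spread between these libraries, which may be in part technical.

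Xylem vessels form when NAC transcription factors of the VND family switch cells of the vascular cylinder to their vessel fate. VND7 is the switch of protoxylem vessels, and the MYB factors MYB46 and MYB83 act below it, overlapping in function, on the genes of the secondary wall. CESA4, CESA7 and CESA8 are the 3 subunits of the cellulose synthase complex of secondary walls, IRX9 is a glycosyltransferase needed for the xylan backbone, and FLA11 is a fasciclin-like arabinogalactan protein. XCP1 and XCP2 are papain-like cysteine peptidases that digest the cell contents as the vessel dies, the last step that leaves an empty tube.

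Promoters of 3 of the genes are shown because they hold the letters of the tracheary-element-regulating element (TERE: CTT, any base, AAAGC, any base, A). This element was described in a cysteine peptidase gene of Zinnia vessels, and it was looked for on both strands of the 250 bases before each gene's annotated start in RefSeq's TAIR10.1 genome. In 27561 protein-coding genes 101 windows, 0.366%, held a match, and 3 of the 10 windows here did. A second motif, the MYB46 element (ACC, A or T, A, A or C, T or C), matched in 4 of the 10 (VND7, MYB83, CESA4 and FLA11), against 29.3% of the 27561 windows. No TERE match overlapped a match of the MYB46 element. The windows are chr5:17714140-17714389 (plus strand) for CESA4, chr5:753658-753907 (minus strand) for FLA11 and chr4:16810232-16810481 (plus strand) for XCP1, and each is written 5′ to 3′ on the gene's strand. Capitals mark the TERE match, which ends 10 bases before the start of CESA4, 194 before FLA11 and 65 before XCP1. They also mark the MYB46 element in CESA4 (read on the opposite strand) and FLA11. A match is a run of letters, and binding was not measured.
CESA4: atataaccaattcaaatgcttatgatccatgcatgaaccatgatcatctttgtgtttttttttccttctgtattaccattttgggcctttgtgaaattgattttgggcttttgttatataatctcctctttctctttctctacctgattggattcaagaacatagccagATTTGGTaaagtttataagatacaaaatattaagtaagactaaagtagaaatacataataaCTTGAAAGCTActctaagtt
FLA11: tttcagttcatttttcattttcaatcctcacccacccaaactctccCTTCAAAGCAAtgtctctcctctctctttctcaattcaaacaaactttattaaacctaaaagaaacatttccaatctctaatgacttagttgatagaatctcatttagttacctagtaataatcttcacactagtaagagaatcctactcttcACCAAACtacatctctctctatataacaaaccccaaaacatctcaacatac
XCP1: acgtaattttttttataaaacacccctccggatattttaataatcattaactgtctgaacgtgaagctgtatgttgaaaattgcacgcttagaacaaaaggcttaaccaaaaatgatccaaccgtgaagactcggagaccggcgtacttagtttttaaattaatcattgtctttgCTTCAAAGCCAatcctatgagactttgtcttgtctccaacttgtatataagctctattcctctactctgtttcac

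The libraries held 28.1 to 49.0 M gene-assigned reads (median 39.3 M). CPM is the count of a gene scaled to a common library size, and log2 fold changes with SE and p-values adjusted over all 20939 genes come from 1 edgeR quasi-likelihood fit to the 36 libraries. Of these libraries, 5 were picked by name, with no set limit, as standing apart from the others with the same label. In CASP1::shy2-2/slr-1 they were replicate 2 at 2 h, replicate 3 at 8 h and replicate 3 at 16 h, and in slr-1 they were replicate 3 without NAA and replicate 3 at 16 h. Calls that were gained or lost without these 5 are given beside each gene. The counts do not check the stabilised repressor alleles: IAA3 had 38.6 to 53.3 CPM in CASP1::shy2-2/slr-1 controls and 38.4 to 42.4 CPM in slr-1 controls, which overlap. Strand use in counting is not given in the sources used here. There are 7 annotated neighbours that overlap 5 of the 10 genes (CESA4, CESA7, CESA8, FLA11 and XCP1) by 2 to 481 bases, most over CESA8, so a few reads there may belong to a neighbour.

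All 10 genes were lower after 16 h of NAA in both genotypes. Which of them passed before 8 h depended on the setting, as given gene by gene. None of the 10 passed at 2 h in CASP1::shy2-2/slr-1 (0 by edgeR at an unadjusted p under 0.05 and 0 by DESeq2). There MYB83 alone was lower at 4 h, 7 genes were lower at 8 h (all but VND7, XCP1 and XCP2) and 10 were lower at 16 h and at 24 h. In slr-1 VND7 was lower at 2 h, MYB83 at 4 h, 7 genes at 8 h (all but FLA11, XCP1 and XCP2), and 10 at 16 h and at 24 h. No gene passed the test as higher at any time in the fit to all 36 libraries. The median log2 fold change over the 10 genes at 2, 4, 8, 16 and 24 h was -0.11, -0.33, -1.03, -2.71 and -2.90 in CASP1::shy2-2/slr-1. In slr-1 it was 0.18, -0.10, -0.65, -1.53 and -1.82. The median of all genes tested stayed between -0.05 and 0.01. In root sections, fewer cells of a type and less RNA per cell cannot be told apart.

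These counts stand against many changes elsewhere. Of all genes tested in CASP1::shy2-2/slr-1, 15.4% were lower and 15.7% higher at 2 h, 11.9% and 10.6% at 4 h, 7.15% and 7.79% at 8 h, 13.9% and 15.8% at 16 h, and 21.1% and 21.6% at 24 h. For slr-1 the lower and higher shares were 22.5% and 20.3% at 2 h, 21.8% and 20.3% at 4 h, 17.8% and 17.9% at 8 h, 22.5% and 22.4% at 16 h, and 26.8% and 23.3% at 24 h. The 1 of 10 or none at 2 and 4 h lay at or below these shares, and the 7 of 10 at 8 h and 10 of 10 later lay well above them. The comparisons of a genotype share its 3 control libraries.

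**Figure D1:**
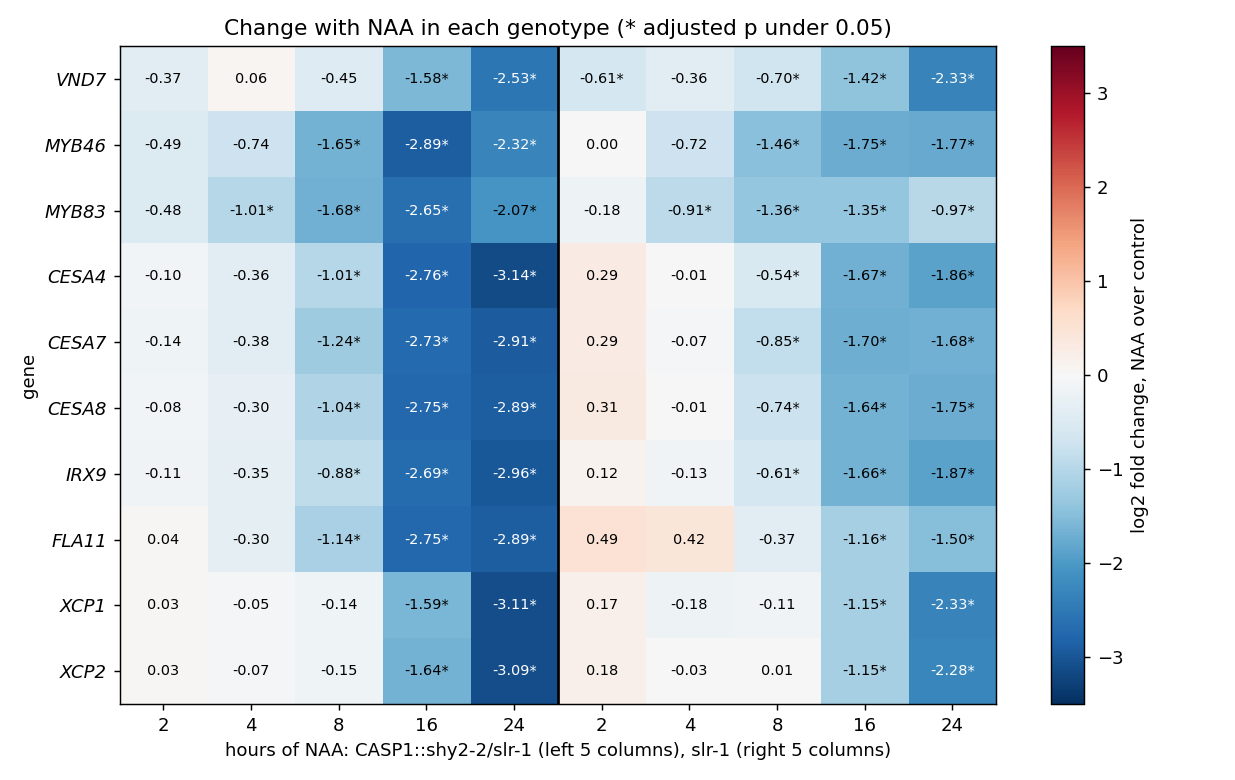
Log2 fold change of each gene (rows) after 2, 4, 8, 16 and 24 h of NAA over the control of the same genotype (columns), with CASP1::shy2-2/slr-1 on the left and slr-1 on the right; asterisks mark an adjusted p under 0.05. Blue deepens from 8 h on, first for the MYB and wall genes, while XCP1 and XCP2 stay near 0 at 8 h and reach -3.11 and -3.09 at 24 h in CASP1::shy2-2/slr-1.

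MYB46 and MYB83 were lower at 8 h in both genotypes. MYB46 in CASP1::shy2-2/slr-1 had 6.44, 9.07 and 7.45 CPM in the controls, 4.94, 6.20 and 5.24 at 2 h and 3.75, 4.84 and 5.21 at 4 h. The MYB46 values were 2.58, 3.29 and 1.498 CPM at 8 h, 1.08, 1.38 and 0.597 at 16 h and 1.57, 1.35 and 1.68 at 24 h. In slr-1 it had 6.34, 6.29 and 8.18 CPM in the controls, 6.25, 7.47 and 7.08 at 2 h and 3.98, 3.85 and 4.82 at 4 h. Its levels were 1.91, 2.15 and 3.56 CPM at 8 h, 2.93, 2.26 and 0.983 at 16 h and 2.70, 2.09 and 1.31 at 24 h. Every treated library lay below the controls from 2 h on in CASP1::shy2-2/slr-1 and from 4 h on in slr-1. The fall passed the test from 8 h, at -1.65 ± 0.30 (SE; adjusted p = 0.000396) in CASP1::shy2-2/slr-1 and -1.46 ± 0.30 (SE; adjusted p = 0.000671) in slr-1. The 4 h values of -0.74 ± 0.29 (SE; adjusted p = 0.0703) in CASP1::shy2-2/slr-1 and -0.72 ± 0.29 (SE; adjusted p = 0.0512) in slr-1 did not pass, but these calls depend on the setting. In CASP1::shy2-2/slr-1 MYB46 passed at 4 h in a fit of only the groups compared (adjusted p = 0.0267) and without the 5 libraries that stood apart (adjusted p = 0.00671), and without those 5 also at 2 h (-0.59, adjusted p = 0.0403). In slr-1 it passed at 4 h with total count scaling, DESeq2, the suffix of the library code as a term, only the groups compared or the 5 libraries left out (adjusted p 0.0152 to 0.0497). At 24 h the change was -2.32 ± 0.32 (SE; adjusted p = 2.21e-06) in CASP1::shy2-2/slr-1 and -1.77 ± 0.31 (SE; adjusted p = 3.74e-05) in slr-1. The lowest group mean was not the last one in CASP1::shy2-2/slr-1, with 1.02 ± 0.395 CPM at 16 h and 1.53 ± 0.165 CPM at 24 h (SD, n = 3) and ranges that overlapped.

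MYB83, the partner of MYB46, was measured at low levels and moved alongside it. Controls of CASP1::shy2-2/slr-1 had 2.64, 3.08 and 3.00 CPM, with 1.13, 1.70 and 1.51 CPM at 4 h of NAA, 0.723, 0.445 and 0.199 CPM at 16 h and 0.772, 0.473 and 0.838 CPM at 24 h. The slr-1 controls had 1.85, 1.82 and 3.17 CPM, with 0.964, 0.867 and 1.80 CPM at 4 h of NAA, 1.37, 0.851 and 0.442 CPM at 16 h and 1.31, 1.10 and 1.08 CPM at 24 h. From 4 h on no treated library of either genotype reached a control, and replicate 3 of the slr-1 controls stood above the other controls of slr-1. The change was -1.01 ± 0.36 (SE; adjusted p = 0.0426) at 4 h, -2.65 ± 0.40 (SE; adjusted p = 1.49e-05) at 16 h and -2.07 ± 0.38 (SE; adjusted p = 0.00011) at 24 h in CASP1::shy2-2/slr-1. The slr-1 changes at those times were -0.91 ± 0.37 (SE; adjusted p = 0.0462), -1.35 ± 0.37 (SE; adjusted p = 0.00499) and -0.97 ± 0.36 (SE; adjusted p = 0.0282). Neither 4 h call held with every library left out in turn. For CASP1::shy2-2/slr-1 the call was lost when any 1 of the 6 libraries compared was left out, and for slr-1 without control replicate 1 or 3 or 4 h replicate 1 or 2 (adjusted p 0.0521 to 0.237 in slr-1). With the replicate number as a block, both 4 h calls were also lost (adjusted p = 0.0521 in CASP1::shy2-2/slr-1 and 0.055 in slr-1). In slr-1 the 24 h fall was -0.65 without control replicate 3 (adjusted p = 0.173), and the call was also lost without 24 h replicate 2 (adjusted p = 0.0837) or 3 (adjusted p = 0.0825). Without the 5 libraries that stood apart it was -0.60 at 4 h (adjusted p = 0.105), -0.71 at 16 h (adjusted p = 0.0755) and -0.66 at 24 h (adjusted p = 0.0656) in slr-1, and MYB83 passed at 2 h in CASP1::shy2-2/slr-1 (-0.75, adjusted p = 0.0478). Only the groups compared also ended the slr-1 calls at 4 h (adjusted p = 0.0901) and 16 h (adjusted p = 0.057), no filter both 4 h calls (adjusted p = 0.056 in CASP1::shy2-2/slr-1 and 0.06 in slr-1), and RLE size factors the slr-1 call at 4 h (adjusted p = 0.0505).

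VND7, the protoxylem switch, fell to its lowest level at 24 h in both genotypes. VND7 in CASP1::shy2-2/slr-1 had 4.07, 2.74 and 5.04 CPM in the controls, 2.62, 3.92 and 2.14 at 8 h, 1.11, 0.8004 and 2.08 at 16 h and 0.669, 0.586 and 0.787 at 24 h. In slr-1 it had 4.41, 5.47 and 4.91 CPM in the controls, 3.32, 3.47 and 2.90 at 2 h, 2.69, 3.56 and 2.85 at 8 h, 1.80, 1.83 and 1.89 at 16 h and 0.842, 1.10 and 0.979 at 24 h. At 8 h the CASP1::shy2-2/slr-1 libraries still overlapped their controls and the slr-1 libraries did not. At 16 and 24 h no treated library of either genotype reached a control. The change was -1.58 ± 0.25 (SE; adjusted p = 2.50e-05) at 16 h and -2.53 ± 0.26 (SE; adjusted p = 3.00e-08) at 24 h in CASP1::shy2-2/slr-1. The slr-1 values were -1.42 ± 0.24 (SE; adjusted p = 5.68e-05) at 16 h and -2.33 ± 0.25 (SE; adjusted p = 2.96e-08) at 24 h. For CASP1::shy2-2/slr-1 VND7 did not pass at 2 h (-0.37 ± 0.24 (SE; adjusted p = 0.238)) or 8 h (-0.45 ± 0.23 (SE; adjusted p = 0.203)). With the suffix of the library code as a term it passed there, at -0.8005 at 2 h (adjusted p = 0.0324) and -0.73 at 8 h (adjusted p = 0.0269). That fit left out CASP1::shy2-2/slr-1 replicate 2 at 2 h, whose code ends in x. The 2 h libraries that remained all carry n and the controls carry no suffix, so the 2 h value rests on a suffix effect estimated from other groups. The early falls in slr-1 were small, at -0.61 ± 0.23 (SE; adjusted p = 0.0368) at 2 h and -0.70 ± 0.23 (SE; adjusted p = 0.0213) at 8 h, with -0.36 ± 0.23 (SE; adjusted p = 0.21) between them. The 2 h call was lost with any 1 of 5 of the 6 libraries left out (all but control replicate 1, adjusted p 0.0541 to 0.109). The 8 h call was lost without control replicate 2 or 8 h replicate 1 or 3 (adjusted p 0.0614 to 0.0777).

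The 3 cellulose synthase genes of the secondary wall all fell at 8 h and had fallen further at 16 h. CESA4 in CASP1::shy2-2/slr-1 had 113, 130.4 and 152 CPM in the controls, 126, 126 and 117 at 2 h and 96.5, 101 and 111 at 4 h. The CESA4 values were 68.0, 73.7 and 54.7 CPM at 8 h, 19.4, 22.5 and 16.4 at 16 h and 13.6, 13.4 and 17.9 at 24 h. In slr-1 it had 91.9, 102.8 and 99.9 CPM in the controls, 119.9, 121 and 120.04 at 2 h and 95.2, 81.9 and 116 at 4 h. Its levels were 63.0, 67.3 and 72.2 CPM at 8 h, 33.0, 32.4 and 27.4 at 16 h and 34.3, 22.7 and 24.1 at 24 h. All treated libraries lay below the controls from 4 h on in CASP1::shy2-2/slr-1 and from 8 h on in slr-1. At 2 h the slr-1 libraries all lay above theirs. The change of CESA4 was -1.01 ± 0.15 (SE; adjusted p = 2.23e-05) at 8 h, -2.76 ± 0.16 (SE; adjusted p = 4.62e-13) at 16 h and -3.14 ± 0.16 (SE; adjusted p = 2.29e-14) at 24 h in CASP1::shy2-2/slr-1. In slr-1 it was -0.54 ± 0.15 (SE; adjusted p = 0.0055) at 8 h, -1.67 ± 0.15 (SE; adjusted p = 4.25e-09) at 16 h and -1.86 ± 0.15 (SE; adjusted p = 1.51e-10) at 24 h. In slr-1 the 16 h and 24 h libraries overlapped. At 4 h CESA4 did not pass in CASP1::shy2-2/slr-1 (-0.36 ± 0.15 (SE; adjusted p = 0.0774)), and it passed with total count scaling (adjusted p = 0.0477) and without the 5 libraries that stood apart (adjusted p = 0.0463).

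CESA7 and CESA8 followed the same course. CESA7 had 11.8, 10.9 and 15.4 CPM at 24 h against 83.9, 92.7 and 109 CPM in the controls of CASP1::shy2-2/slr-1, and 30.3, 18.4 and 19.4 CPM against 64.0, 74.0 and 79.9 CPM in slr-1. CESA8 had 10.2, 10.1 and 14.4 CPM at 24 h against 74.7, 87.1 and 95.0 CPM in the controls of CASP1::shy2-2/slr-1, and 25.4, 16.8 and 18.2 CPM against 62.1, 68.2 and 72.8 CPM in slr-1. Treated and control libraries did not overlap for either gene in either genotype at 8, 16 or 24 h. For CESA7 the changes at 8, 16 and 24 h were -1.24, -2.73 and -2.91 ± 0.21 in CASP1::shy2-2/slr-1 and -0.85, -1.70 and -1.68 ± 0.20 in slr-1. For CESA8 they were -1.04, -2.75 and -2.89 ± 0.18 in CASP1::shy2-2/slr-1 and -0.74, -1.64 and -1.75 ± 0.17 in slr-1. All 12 passed the test, with adjusted p from 8.34e-13 (CESA8, 24 h, CASP1::shy2-2/slr-1) to 0.00167 (CESA7, 8 h, slr-1). Per kb of exon the 3 subunits stood at like levels, and in CASP1::shy2-2/slr-1 controls CESA4 had 34.9 ± 5.12, CESA7 28.0 ± 3.80 and CESA8 25.6 ± 3.07 CPM per kb. After 24 h of NAA the levels were 3.97 ± 0.681, 3.72 ± 0.698 and 3.46 ± 0.737 CPM per kb in that order (SD, n = 3).

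The wall genes stood slightly above their controls in slr-1 at 2 h, short of the test. At 2 h of NAA the 3 slr-1 libraries lay above the 3 controls for CESA4, CESA7, CESA8, FLA11 and XCP1. The log2 values there were 0.29 ± 0.15 (SE; adjusted p = 0.11) for CESA4, 0.29 ± 0.19 (SE; adjusted p = 0.231) for CESA7 and 0.31 ± 0.16 (SE; adjusted p = 0.122) for CESA8. FLA11 stood at 0.49 ± 0.23 (SE; adjusted p = 0.0876), and none of the 4 passed. In a fit of only the groups compared, CESA4 (adjusted p = 0.0101), CESA7 (0.0299), CESA8 (0.0121) and FLA11 (0.0101) passed. Without the 5 libraries that stood apart FLA11 passed at 0.64 (adjusted p = 0.000742). The slr-1 libraries of 2 h all carry the suffix n in their library code, and no slr-1 control does. With that suffix as a term none of these genes passed, as in the fit without it. The term was not added to the fits in which they passed, so this cannot tell whether the suffix has a part. What the suffix stands for is not given in the sources used here.

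The 24 h changes of IRX9 and FLA11 were near those of the cellulose synthase genes. IRX9, the xylan gene, had 3.78, 3.52 and 5.36 CPM at 24 h against 28.3, 33.3 and 36.4 CPM in CASP1::shy2-2/slr-1 controls, and 8.81, 6.94 and 6.28 CPM against 26.1, 25.2 and 29.5 CPM in slr-1 controls. No treated library reached a control at 8, 16 or 24 h. IRX9 changed by -0.88 ± 0.17 (SE; adjusted p = 0.000755) at 8 h and -2.96 ± 0.19 (SE; adjusted p = 2.70e-12) at 24 h in CASP1::shy2-2/slr-1. The slr-1 changes were -0.61 ± 0.17 (SE; adjusted p = 0.00774) at 8 h and -1.87 ± 0.18 (SE; adjusted p = 3.49e-09) at 24 h. At 4 h IRX9 had -0.35 ± 0.17 (SE; adjusted p = 0.141) in CASP1::shy2-2/slr-1, and it passed without the 5 libraries that stood apart (adjusted p = 0.0348).

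FLA11, the arabinogalactan protein gene, had a different course in the genotypes. Libraries of CASP1::shy2-2/slr-1 had 41.9, 55.0 and 47.2 CPM in the controls, 43.9, 66.1 and 38.0 at 2 h and 33.5, 43.7 and 39.6 at 4 h. The FLA11 values were 24.6, 23.1 and 17.5 CPM at 8 h, 8.53, 8.45 and 4.29 at 16 h and 4.91, 6.47 and 8.05 at 24 h. In slr-1 it had 30.4, 29.3 and 39.4 CPM in the controls, 45.4, 46.0 and 48.1 at 2 h and 48.7, 39.7 and 44.2 at 4 h. Its levels were 23.5, 26.4 and 26.7 CPM at 8 h, 18.1, 17.2 and 8.85 at 16 h and 13.7, 10.8 and 10.6 at 24 h. Treated libraries of slr-1 lay above their controls at 2 and 4 h and below them from 8 h. Those of CASP1::shy2-2/slr-1 overlapped the controls at 2 and 4 h and lay below from 8 h. Between the genotypes, the treated libraries overlapped at 2 and 4 h, while the slr-1 controls lay below those of CASP1::shy2-2/slr-1. With all libraries the difference of the NAA responses did not pass at 2, 4 or 8 h. The change at 4 h, -0.30 ± 0.23 (SE; adjusted p = 0.379) in CASP1::shy2-2/slr-1 and 0.42 ± 0.23 (SE; adjusted p = 0.149) in slr-1, passed in neither. In slr-1 it passed as higher at 4 h in a fit of only the groups compared (0.43, adjusted p = 0.0451) and without the 5 libraries that stood apart (0.57, adjusted p = 0.00194). At 8 h it was -1.14 ± 0.24 (SE; adjusted p = 0.00121) in CASP1::shy2-2/slr-1 and -0.37 ± 0.23 (SE; adjusted p = 0.22) in slr-1. At 16 h FLA11 stood at -2.75 ± 0.25 (SE; adjusted p = 5.30e-09) in CASP1::shy2-2/slr-1 and -1.16 ± 0.24 (SE; adjusted p = 0.000436) in slr-1. At 24 h it stood at -2.89 ± 0.25 (SE; adjusted p = 1.32e-09) in CASP1::shy2-2/slr-1 and -1.498 ± 0.24 (SE; adjusted p = 1.39e-05) in slr-1.

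The peptidase genes XCP1 and XCP2, which act at the end of vessel formation, passed the test at no time through 8 h and were lower at 16 and 24 h. XCP1 in CASP1::shy2-2/slr-1 had 215, 204 and 269 CPM in the controls, 237, 258 and 210.3 at 2 h and 223, 214 and 229 at 4 h. The XCP1 values were 208, 215 and 201 CPM at 8 h, 64.2, 69.7 and 94.0 at 16 h and 26.0, 25.0 and 28.9 at 24 h. In slr-1 it had 243, 223 and 219 CPM in the controls, 267, 253 and 249.9 at 2 h and 193, 169 and 241 at 4 h. Its levels were 209.8, 231 and 192 CPM at 8 h, 98.8, 86.1 and 123 at 16 h and 44.9, 43.3 and 48.0 at 24 h. Treated and control libraries overlapped at 4 and 8 h in both genotypes and no longer at 16 and 24 h. XCP1 stood at -0.14 ± 0.13 (SE; adjusted p = 0.525) at 8 h in CASP1::shy2-2/slr-1 and -0.11 ± 0.13 (SE; adjusted p = 0.539) in slr-1, when MYB46 and the CESA genes had already fallen. It changed by -1.59 ± 0.14 (SE; adjusted p = 1.57e-09) at 16 h and -3.11 ± 0.15 (SE; adjusted p = 4.48e-15) at 24 h in CASP1::shy2-2/slr-1. For slr-1 the changes of XCP1 were -1.15 ± 0.14 (SE; adjusted p = 3.51e-07) at 16 h and -2.33 ± 0.14 (SE; adjusted p = 4.87e-13) at 24 h. XCP2 had 25.3, 22.5 and 28.9 CPM at 24 h against 198, 202 and 254 CPM in CASP1::shy2-2/slr-1 controls, and 38.8, 36.6 and 42.6 CPM against 210.4, 187 and 177 CPM in slr-1 controls. Its values at 8, 16 and 24 h were -0.15 ± 0.14, -1.64 ± 0.15 and -3.09 ± 0.16 in CASP1::shy2-2/slr-1 and 0.01 ± 0.14, -1.15 ± 0.15 and -2.28 ± 0.15 in slr-1, close to those of XCP1 at each time. At 24 h this took both peptidase genes as far down as the CESA genes in CASP1::shy2-2/slr-1 and further than the CESA genes in slr-1.

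**Figure D2:**
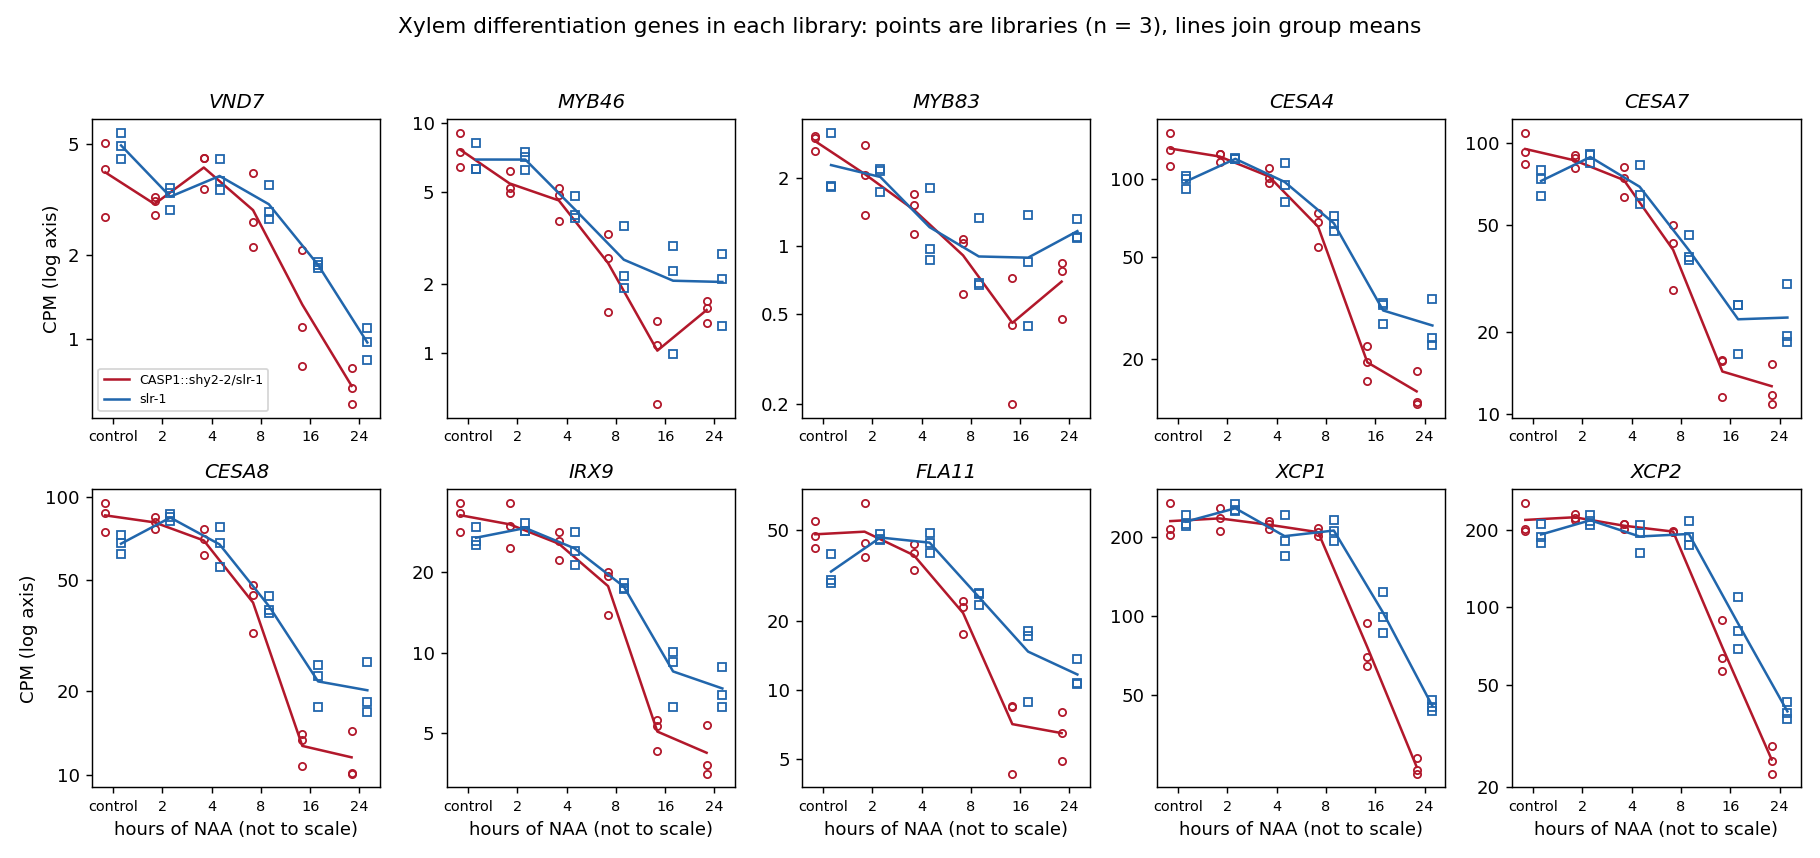
CPM of the 10 genes in each library (points, 3 per group; log axis) by hours of NAA, with CASP1::shy2-2/slr-1 as red circles left of slr-1 as blue squares; lines join group means. The lines part at 16 and 24 h for the wall genes, as for CESA4 with 13.4 to 17.9 CPM in CASP1::shy2-2/slr-1 and 22.7 to 34.3 CPM in slr-1 at 24 h, while XCP1 and XCP2 pass the test at no time through 8 h.

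Over the 12 groups the highest group mean was 6.38 (MYB83) to 9.63 (XCP1) times the lowest. CASP1::shy2-2/slr-1 at 24 h was the lowest group for 8 genes, and for MYB46 and MYB83 the same genotype at 16 h was. For CESA4 the order from the highest mean was CASP1::shy2-2/slr-1 control, CASP1::shy2-2/slr-1 at 2 h, slr-1 at 2 h, CASP1::shy2-2/slr-1 at 4 h, slr-1 control, slr-1 at 4 h, slr-1 at 8 h and CASP1::shy2-2/slr-1 at 8 h. Below them came slr-1 at 16 h, slr-1 at 24 h, CASP1::shy2-2/slr-1 at 16 h and CASP1::shy2-2/slr-1 at 24 h. Neighbours in that order did not overlap in 4 of the 11 steps: below slr-1 at 2 h, below slr-1 at 4 h, below CASP1::shy2-2/slr-1 at 8 h and below slr-1 at 24 h. For XCP1 the 8 groups through 8 h filled the first 8 places, from 257 ± 9.37 CPM in slr-1 at 2 h to 201 ± 36.6 CPM in slr-1 at 4 h (SD, n = 3), with neighbours that overlapped throughout. Over all 10 genes, neighbours overlapped in 7 to 9 of the 11 steps, so the order within the early groups is not resolved.

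CASP1::shy2-2/slr-1 showed a deeper fall with NAA than slr-1 did for the wall genes at 16 h and for the wall and peptidase genes at 24 h. The test of this difference takes the log2 fold change in CASP1::shy2-2/slr-1 minus that in slr-1. At 16 h 5 genes passed it and at 24 h 7, all as lower. At 2, 4 and 8 h none did (edgeR; 0, 1 and 2 genes at an unadjusted p under 0.05, and 0 by DESeq2 at each time). Of all tested genes, 7.07% were lower and 8.49% higher in this test at 2 h, 6.03% and 5.91% at 4 h, 5.98% and 5.64% at 8 h, 4.92% and 4.52% at 16 h, and 6.66% and 7.18% at 24 h.

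At 24 h the difference was -1.28 ± 0.21 (SE; adjusted p = 0.000111) for CESA4, -1.23 ± 0.28 (SE; adjusted p = 0.00355) for CESA7 and -1.14 ± 0.23 (SE; adjusted p = 0.00135) for CESA8. It was -1.08 ± 0.25 (SE; adjusted p = 0.00463) for IRX9 and -1.39 ± 0.34 (SE; adjusted p = 0.00621) for FLA11. The estimates of the peptidase genes were smaller, at -0.77 ± 0.19 (SE; adjusted p = 0.0067) for XCP1 and -0.81 ± 0.21 (SE; adjusted p = 0.00893) for XCP2. At 16 h FLA11 differed by -1.59 ± 0.34 (SE; adjusted p = 0.00322), CESA8 by -1.11 ± 0.23 (SE; adjusted p = 0.00291), and CESA4 by -1.09 ± 0.21 (SE; adjusted p = 0.00113). At that time CESA7 differed by -1.03 ± 0.28 (SE; adjusted p = 0.0198) and IRX9 by -1.02 ± 0.25 (SE; adjusted p = 0.0104). In a fit of only the groups compared, CESA7 (adjusted p = 0.0587), IRX9 (0.0518) and FLA11 (0.0662) lost the 16 h call at estimates of -1.01, -1.005 and -1.57. The 7 calls at 24 h held with any 1 library left out and in every other setting tried. At 16 h CESA7 lost its call without 1 of 5 libraries (CASP1::shy2-2/slr-1 control replicate 3 or 16 h replicate 3, slr-1 control replicate 1, or slr-1 16 h replicate 1 or 2), with adjusted p of 0.0629 to 0.0771.

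The regulators did not pass this test with all libraries, and for MYB46 and MYB83 that depends on the setting. For VND7 the difference was -0.17 ± 0.34 (SE; adjusted p = 0.809) at 16 h and -0.20 ± 0.36 (SE; adjusted p = 0.762) at 24 h. MYB46 had -1.14 ± 0.44 (SE; adjusted p = 0.102) at 16 h and -0.55 ± 0.43 (SE; adjusted p = 0.424) at 24 h. MYB83 had -1.296 ± 0.54 (SE; adjusted p = 0.129) at 16 h and -1.10 ± 0.52 (SE; adjusted p = 0.165) at 24 h. At 16 h the estimates of both MYB genes were as large as those of the CESA genes, with larger errors. Replicate 3 of slr-1 at 16 h was the lowest of its group for both (2.93, 2.26 and 0.983 CPM for MYB46 and 1.37, 0.851 and 0.442 CPM for MYB83). Without it the difference at 16 h was -1.48 for MYB46 (adjusted p = 0.0192) and -1.63 for MYB83 (adjusted p = 0.0452). Without the 5 libraries that stood apart it was -1.35 for MYB46 (adjusted p = 0.0122) and -1.60 for MYB83 (adjusted p = 0.0209). At 24 h MYB83 passed without those 5 (-1.41, adjusted p = 0.0163) and in a fit of only the groups compared (-1.11, adjusted p = 0.0466). VND7 passed in no setting tried. XCP1 and XCP2 passed at 16 h without the CASP1::shy2-2/slr-1 library of replicate 3 at 16 h, at -0.62 (adjusted p = 0.0342) and -0.71 (adjusted p = 0.0223). XCP2 also passed without slr-1 16 h replicate 2 (adjusted p = 0.0492). With all libraries they were -0.44 ± 0.19 (SE; adjusted p = 0.138) and -0.49 ± 0.21 (SE; adjusted p = 0.126). Both replicate 3 libraries of 16 h carry the code suffix n, and the other 16 h libraries carry none. Without the 5 libraries that stood apart, FLA11 passed at 2 h (-0.87, adjusted p = 0.00131), 4 h (-0.87, adjusted p = 0.00107) and 8 h (-0.78, adjusted p = 0.0056). It also passed in a fit of only the groups compared at 4 h (adjusted p = 0.0445) and 8 h (adjusted p = 0.0457). With all libraries FLA11 had -0.46, -0.72 and -0.77 at 2, 4 and 8 h.

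**Figure D3:**
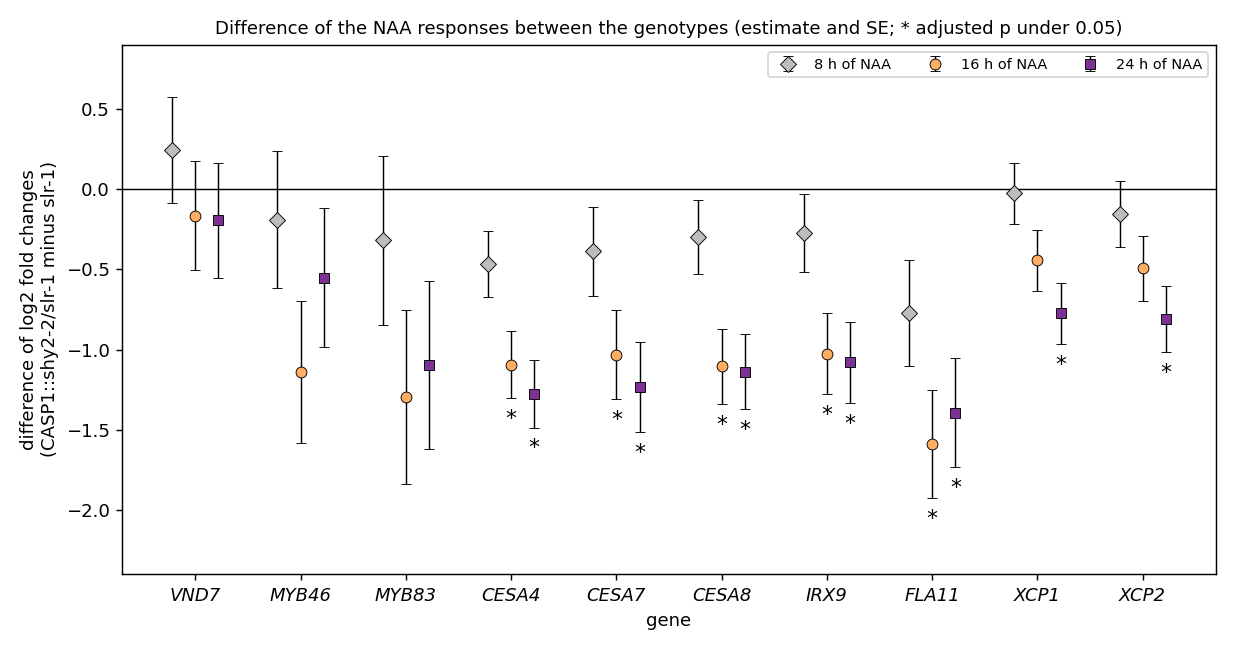
Difference of the NAA response between genotypes, as log2 fold change in CASP1::shy2-2/slr-1 minus that in slr-1, for each gene at 8, 16 and 24 h (points; bars are SE; asterisks mark an adjusted p under 0.05). No gene passes at 8 h, the CESA genes, IRX9 and FLA11 pass at 16 and 24 h, and XCP1 and XCP2 pass at 24 h at -0.77 and -0.81.

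Over the 5 times together, a test with 5 degrees of freedom found a genotype difference in the time course of 7 of the 10 genes, where 26.4% of all tested genes passed. They were CESA4 (adjusted p = 0.00026), CESA8 (0.00147), IRX9 (0.00501), XCP1 (0.00546), FLA11 (0.00676), CESA7 (0.00996) and XCP2 (0.0215). XCP2 lost its call without CASP1::shy2-2/slr-1 24 h replicate 2 (adjusted p = 0.0526) or slr-1 24 h replicate 3 (0.0517), and MYB46 passed without slr-1 16 h replicate 3 (0.0454). VND7 (0.526), MYB46 (0.239) and MYB83 (0.213) did not pass with all libraries. MYB46 (0.0174) and MYB83 (0.0221) passed without the 5 libraries that stood apart.

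Without NAA the genotypes differed little in these genes. CESA4 alone passed the test, with 113, 130.4 and 152 CPM in CASP1::shy2-2/slr-1 controls and 91.9, 102.8 and 99.9 CPM in slr-1 controls, which do not overlap. The difference was 0.42 ± 0.15 (SE; adjusted p = 0.0345), where 12.7% of all tested genes were lower and 12.3% higher in CASP1::shy2-2/slr-1, so 1 of 10 is near the background. The call was lost without any 1 of 5 of the 6 control libraries (all but CASP1::shy2-2/slr-1 replicate 1), with adjusted p of 0.0602 to 0.204, and in a fit of only the groups compared (adjusted p = 0.0517), in which FLA11 passed (0.56, adjusted p = 0.0474). FLA11 (0.54 ± 0.23 (SE; adjusted p = 0.0869)), CESA7 (0.39 ± 0.19 (SE; adjusted p = 0.141)), CESA8 (0.34 ± 0.16 (SE; adjusted p = 0.126)) and IRX9 (0.28 ± 0.17 (SE; adjusted p = 0.235)) leaned the same way. Without the 5 libraries that stood apart, of which 1 is an slr-1 control, 4 genes passed: CESA4, CESA7 (0.47, adjusted p = 0.0434), CESA8 (0.39, adjusted p = 0.049) and FLA11 (0.69, adjusted p = 0.000634). XCP1 stood at 0.01 ± 0.13 (SE; adjusted p = 0.98). Since the controls are the baseline of the NAA response, a higher control in CASP1::shy2-2/slr-1 enters the interaction of each wall gene. At 24 h of NAA CESA4 had 13.4 to 17.9 CPM in CASP1::shy2-2/slr-1 and 22.7 to 34.3 CPM in slr-1. For XCP1 the ranges were 25.0 to 28.9 and 43.3 to 48.0 CPM, in that order of genotypes. Those of MYB46 overlapped, at 1.35 to 1.68 and 1.31 to 2.70 CPM. These levels were not tested on their own.

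How alike the 10 genes were in their course is described by Pearson's r between the 12 group means of log2 CPM, with no test since the 12 groups share 1 time course and its controls. The cellulose synthase genes and IRX9 were nearly the same in shape, with r of 0.999 for CESA4 and IRX9, 0.998 for CESA7 and CESA8 and 0.9924 for CESA4 and CESA7. XCP1 and XCP2 had r of 0.9975 with each other and 0.9322 and 0.9353 with CESA4. MYB46 and MYB83 had r of 0.9566 with each other, and the lowest value of all pairs was 0.6042, for MYB83 and XCP2. VND7 was closest to XCP1 (0.9631) and farthest from MYB83 (0.671).

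There were 17188 genes with enough reads, a number that includes members. Outside the 10 genes, those whose 12 group means were most like the mean of the 10 were COBL4 (IRX6, AT5G15630; r = 0.9987), a secondary wall cellulose gene, AT3G27200 (0.9932), AT1G13635 (0.9917) and AT5G60720 (0.9915). Next came IRX8 (GAUT12; 0.9908) and GUX1 (PGSIP1; 0.9902), both xylan genes, the laccase gene LAC2 (0.9894), AT4G27435 (0.9893), AT3G24535 (0.9879) and AT1G09440 (0.9873). VND7 alone was most like AT1G08340 (0.9755), AT2G36355 (0.9749) and AT1G23460 (0.9741). MYB46 was most like GulLO6 (0.9873), UXS3 (0.9835), which makes UDP-xylose, and RAC2 (0.978). MYB83 was most like the laccase gene LAC10 (0.965), MYB46 itself (0.9566) and RIC2 (0.952).

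Per kb of exon, the peptidase genes were the most abundant of the 10, with 162.3 ± 24.9 CPM per kb for XCP1 in CASP1::shy2-2/slr-1 controls and 161.6 ± 9.03 in slr-1 controls. XCP2 had 158 ± 22.9 and 139 ± 12.6 CPM per kb, in that order of genotypes. FLA11 had 52.9 ± 7.29 and 36.4 ± 6.07 CPM per kb, and IRX9 22.1 ± 2.76 and 18.2 ± 1.51, in the same order. The regulators were the lowest: MYB46 had 6.11 ± 1.06 and 5.54 ± 0.861 CPM per kb, VND7 2.37 ± 0.694 and 2.96 ± 0.318, and MYB83 1.66 ± 0.135 and 1.303 ± 0.440 (SD, n = 3). The low counts of MYB83 go with wider errors, of 0.38 on the log2 scale at 24 h against 0.15 for XCP1 in CASP1::shy2-2/slr-1.

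The rest of the xylem pathway was read from gene lists at 24 h, where the shares for all genes are those given above. Of 20 other secondary wall xylan and cellulose genes, 18 fell in CASP1::shy2-2/slr-1 and 17 in slr-1 and none rose. The chitinase-like gene CTL2 changed by -3.27 ± 0.12 and -2.47 ± 0.12, the xylan glucuronosyltransferase gene GUX1 by -3.45 ± 0.15 and -2.55 ± 0.14, and IRX8 by -3.18 ± 0.13 and -1.85 ± 0.12, in that order of genotypes. The list's median was -1.85 in CASP1::shy2-2/slr-1 and -1.76 in slr-1, against -0.0067 and -0.0032 for all genes. In the test of the difference, where 6.66% of all tested genes were lower and 7.18% higher, 8 of the list were lower. Among them was IRX15 at -1.49 ± 0.19 (SE; adjusted p = 3.89e-06). The 1 that was higher was F8H, a relative of the xylan gene FRA8, at 0.84 ± 0.28 (SE; adjusted p = 0.0479).

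Of the 10 lignin polymerisation genes 7 fell and 3 rose in each genotype. The laccase genes LAC17 and LAC4 changed by -3.71 ± 0.14 and -2.86 ± 0.17 in CASP1::shy2-2/slr-1 and by -2.38 ± 0.13 and -1.98 ± 0.16 in slr-1. The peroxidase gene PRX72 went against them in the test of the difference, at 3.18 ± 0.51 (SE; adjusted p = 7.22e-05). It had 33.4 ± 5.37 CPM at 24 h and 98.0 ± 32.4 CPM in controls of CASP1::shy2-2/slr-1, and 2.55 ± 0.188 and 67.7 ± 42.01 CPM in slr-1 (SD, n = 3). The 4 other genes of vessel death fell in both genotypes. The log2 fold changes in CASP1::shy2-2/slr-1 and slr-1 were -1.70 ± 0.24 and -1.12 ± 0.24 for the metacaspase gene MC9, and -2.18 ± 0.26 and -1.04 ± 0.25 for the nuclease gene BFN1. They were -1.56 ± 0.20 and -0.76 ± 0.20 for the ribonuclease gene RNS3, and -1.97 ± 0.26 and -1.80 ± 0.26 for the peptidase gene XSP1. At 8 h none of these 4 had passed in either genotype (0 by edgeR at an unadjusted p under 0.05 and 0 by DESeq2), and neither had XCP1 and XCP2. Of all tested genes 7.15% were lower and 7.79% higher at 8 h in CASP1::shy2-2/slr-1, and 17.8% and 17.9% in slr-1. So 0 of 4 is not far from these shares.

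Of 8 wall pattern microtubule genes, 6 fell and none rose in CASP1::shy2-2/slr-1, and 5 fell and 1 rose in slr-1. MAP65-8, a microtubule bundling protein gene, changed by -2.06 ± 0.12 in CASP1::shy2-2/slr-1 and -1.68 ± 0.12 in slr-1. MAP70-5, another microtubule protein gene, fell to 4.81 ± 0.426 CPM at 24 h in CASP1::shy2-2/slr-1, against 18.5 ± 3.23 CPM in its controls, and rose to 84.0 ± 3.82 CPM in slr-1, against 27.4 ± 3.37 CPM (SD, n = 3). The difference between genotypes was -3.56 ± 0.32 (SE; adjusted p = 7.65e-09).

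Transcription factors of the pathway moved in several directions. Of 18 factors that act below the switches, 11 fell and none rose in CASP1::shy2-2/slr-1, and 9 fell and 4 rose in slr-1. SND2 changed by -2.25 ± 0.11 in CASP1::shy2-2/slr-1 and -1.57 ± 0.11 in slr-1, and MYB103 by -3.18 ± 0.28 and -1.70 ± 0.26. MYB85, known for the lignin pathway, fell to 0.627 ± 0.0597 CPM in CASP1::shy2-2/slr-1, against 2.84 ± 0.302 CPM in controls. It rose to 6.47 ± 1.24 CPM in slr-1, against 2.83 ± 0.539 CPM in controls (SD, n = 3), and the difference was -3.36 ± 0.29 (SE; adjusted p = 4.14e-09). MYB54 had 9.86 ± 0.895 CPM at 24 h and 6.78 ± 2.47 CPM in controls of CASP1::shy2-2/slr-1, which did not pass. It fell to 1.06 ± 0.218 CPM in slr-1, against 8.81 ± 4.11 CPM in controls, and the difference was 3.58 ± 0.43 (SE; adjusted p = 1.04e-06). In the test of the difference 10 of the 18 were lower and 1 was higher, against 6.66% and 7.18% of all tested genes. The time course test with 5 degrees of freedom passed 15 of the 18, and 26.4% of all tested genes.

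Of 8 other VND and NST switch genes tested, 4 fell and 2 rose in CASP1::shy2-2/slr-1 and 2 fell and 3 rose in slr-1. NST1, NST2 and SND1, NAC switches of secondary wall thickening, were too low to test. VND4 fell by 2.48 ± 0.14 in CASP1::shy2-2/slr-1 and by 1.70 ± 0.14 in slr-1, and VND5 by 1.58 ± 0.23 and 1.26 ± 0.23. VND1 and VND3 rose, by 1.08 ± 0.20 and 0.98 ± 0.13 in CASP1::shy2-2/slr-1 and by 1.72 ± 0.21 and 1.19 ± 0.13 in slr-1. Of 14 vascular patterning regulators tested, 5 rose and 1 fell in CASP1::shy2-2/slr-1 and 7 rose and none fell in slr-1. Both T5L1, a factor of the auxin and cytokinin pathway of vascular cells, and ATHB8, a procambium gene, rose: T5L1 by 1.47 ± 0.11 and 1.32 ± 0.11, and ATHB8 by 0.66 ± 0.12 and 0.66 ± 0.12, in CASP1::shy2-2/slr-1 and slr-1. Of 8 primary wall cellulose genes none passed in CASP1::shy2-2/slr-1 (edgeR; 1 at an unadjusted p under 0.05, 0 by DESeq2; median -0.07), and 2 fell and 3 rose in slr-1. There the endoglucanase gene KOR1 changed by -0.44 ± 0.09, and CESA6 by 0.38 ± 0.11, which is small beside the fall of CESA4, CESA7 and CESA8.

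**Figure D4:**
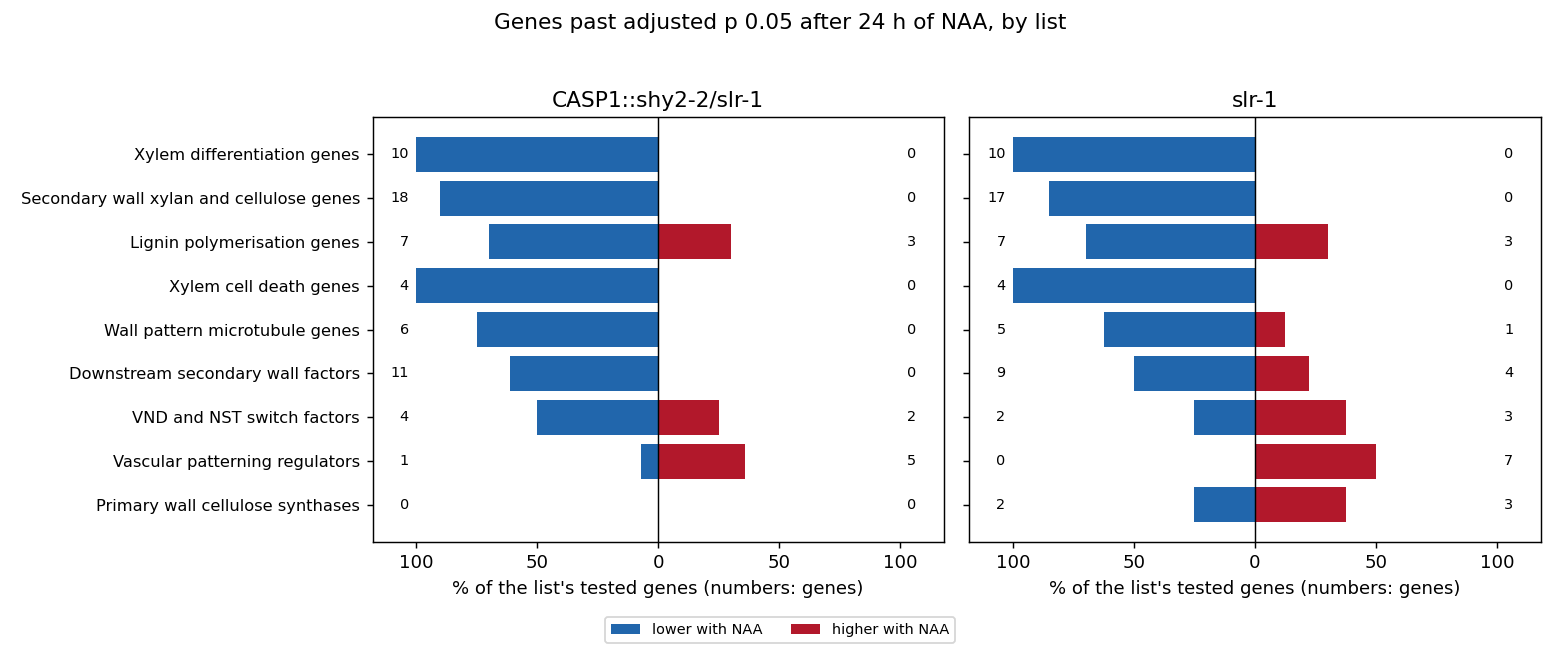
Share of each list's tested genes past an adjusted p of 0.05 after 24 h of NAA (bars: lower to the left, higher to the right, with numbers of genes beside them), for CASP1::shy2-2/slr-1 on the left and slr-1 on the right. Wall, lignin and cell death lists lie mostly on the lower side in both genotypes, and vascular patterning regulators on the higher side, with 5 and 7 genes.

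Markers of other root cell types moved in part with the xylem genes. All 7 endodermis markers fell at 24 h in both genotypes, where 21.1% of all tested genes fell in CASP1::shy2-2/slr-1 and 26.8% in slr-1. Their summed level was 13.1 to 15.7 CPM at 24 h against 139 to 233 CPM in CASP1::shy2-2/slr-1 controls, and 12.6 to 14.4 CPM against 42.1 to 198 CPM in slr-1 controls. Among them was CASP1, whose promoter drives shy2-2, with 0.839 ± 0.136 CPM at 24 h against 53.3 ± 18.8 CPM in CASP1::shy2-2/slr-1 controls and 0.691 ± 0.170 CPM against 29.6 ± 24.4 CPM in slr-1 (SD, n = 3). CASP5 was at 0 in all 6 libraries of 24 h. None of the 7 passed in the test of the genotype difference at 24 h (edgeR; 0 at an unadjusted p under 0.05 and 0 by DESeq2). Of all tested genes 6.66% were lower and 7.18% higher in it. Their part in the xylem result was not tested.

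Summed levels of phloem and pericycle markers at 24 h lay within or above the range of the controls. The counts of markers called stand beside 21.1% lower and 21.6% higher of all tested genes in CASP1::shy2-2/slr-1. In slr-1 these shares were 26.8% and 23.3%. The 7 phloem markers summed to 329 to 349 CPM at 24 h against 299 to 410.5 CPM in CASP1::shy2-2/slr-1 controls, with 3 lower and 1 higher. For slr-1 they summed to 288 to 319.8 CPM against 287 to 365 CPM, with 4 lower and 2 higher. The 5 pericycle and stele markers summed to 991 to 1035 CPM at 24 h against 729.7 to 798 CPM in CASP1::shy2-2/slr-1, with 1 lower and 2 higher. For slr-1 the pericycle sum was 974 to 1083 CPM against 804 to 1107 CPM, with 1 lower and 1 higher. Other lists were low or did not pass. The 4 root hair markers summed to 0.293 to 0.772 CPM at 24 h against 2.02 to 4.17 CPM in CASP1::shy2-2/slr-1 and 0.527 to 0.619 CPM against 0.923 to 8.18 CPM in slr-1, with 2 lower in each. The 2 cortex markers summed to at most 0.432 CPM at 24 h against at most 1.07 CPM in controls of CASP1::shy2-2/slr-1. In slr-1 they summed to 0.183 to 0.520 CPM at 24 h against 0.0486 to 0.315 CPM in controls. The 1 cortex marker tested did not pass in either genotype. None of 5 shoot and photosynthesis markers passed at 24 h in either genotype (edgeR; 0 in CASP1::shy2-2/slr-1 and 1 in slr-1 at an unadjusted p under 0.05, and 0 in each by DESeq2). Their sums were 151 to 161.5 CPM against 148 to 219.8 CPM in CASP1::shy2-2/slr-1 and 213 to 246 CPM against 205 to 366 CPM in slr-1.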

How the data were processed

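The deposited files hold counts of reads per gene, 1 file for each of 36 libraries. Per the submitters' processing notes, the authors used cutadapt 1.3, STAR 2.4.0a and HTSeq 0.6.1 with the TAIR10 build. No settings were given, and which steps each tool ran is not stated. The 5 summary categories (5.28 to 11.2% of reads, median 5.68%) were left out. Libraries held 28.1 to 49.0 M gene-assigned reads, and the part of depth in the errors of genes of a few CPM, such as MYB83, was not tested.

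The analysis used edgeR 4.0.16 in R 4.3.3. Normalisation factors (TMM) ran from 0.939 to 1.066, filterByExpr by group kept 20939 genes and dropped 11739. The quasi-likelihood F-test with robust settings used 1 mean for each of the 12 groups, which leaves 24 residual degrees of freedom, and the common dispersion had a square root of 0.149. SE is the size of the log2 fold change divided by the root of F. Adjusted p-values are Benjamini-Hochberg over all genes tested, called under 0.05. Each NAA time was compared with the controls of its genotype, the responses were compared between genotypes at each time and with 5 degrees of freedom, and the controls were compared between genotypes. CPM use the TMM-scaled library sizes, CPM per kb the exon length in RefSeq's TAIR10.1 annotation, and log2 CPM a prior count of 2. Coordinates and promoters are from TAIR10.1, and were not used with the counts.

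The 10 genes and the 14 lists with 124 other loci were chosen with earlier results of these data known, so their direction is no independent evidence. In each list the text names genes from those with the smallest p at 24 h in each genotype and in the 5-degree test, and like genes are those with the highest r among genes tested that average a log2 CPM of 1 or more. MYB103 follows this rule, and NST1, NST2, SND1 and COBL4 are named outside it. The fit was also run on simulated counts with 200 genes changed, in slr-1 at 24 h alone. Far more genes changed in the data, so that run does not test the fit under such wide change. The replicate numbers do not pair libraries by the rule used, since all 3 same-numbered pairs correlated above 0.1 in 0 of 11 comparisons. Alternatives were RLE size factors, total count scaling, DESeq2 1.42.0, no filter, a replicate block, the code suffix n as a term (13 libraries carry n, 1 carries x and 22 none), only the groups compared, an adjusted p under 0.01, each library left out, and the 5 libraries that stood apart left out together. The fit with the suffix term left out the library with x, CASP1::shy2-2/slr-1 replicate 2 at 2 h.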

Additional observations from a re-analysis of the deposited data

Results flagged for a closer look

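Each result below differed between the genotypes by the test of the difference itself, the log2 fold change with NAA in CASP1::shy2-2/slr-1 minus that in slr-1, with edgeR's quasi-likelihood test. At 16 h it was -1.09 for CESA4, -1.03 for CESA7, -1.11 for CESA8, -1.02 for IRX9 and -1.59 for FLA11 (adjusted p 0.00113 to 0.0198). At 24 h it was -1.28 for CESA4, -1.23 for CESA7, -1.14 for CESA8, -1.08 for IRX9, -1.39 for FLA11, -0.77 for XCP1 and -0.81 for XCP2 (adjusted p 0.000111 to 0.00893). The regulators VND7, MYB46 and MYB83 did not pass it at either time with all libraries. Without the 5 libraries that stood apart, MYB46 passed at 16 h (-1.35, adjusted p = 0.0122) and MYB83 at 16 h (-1.60, adjusted p = 0.0209) and 24 h (-1.41, adjusted p = 0.0163). In a fit of only the groups compared, MYB83 passed at 24 h (adjusted p = 0.0466) and the 16 h calls of CESA7, IRX9 and FLA11 were lost (adjusted p 0.0518 to 0.0662).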

How the results depend on the processing

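The counts of the 10 genes called at 8, 16 and 24 h of NAA in either genotype, in the difference between genotypes at 24 h and in the 5-degree test stayed within 1.5 times under every alternative run, and no result reversed. The other counts were small and moved. These counts take both directions together. In slr-1 at 2 h (1 called), only the groups compared gave 5, leaving out the 5 libraries that stood apart 2, an adjusted p under 0.01 gave 0, and leaving out 1 library 0 to 1. The calls gained there were higher, not lower: CESA4, CESA7, CESA8 and FLA11 with only the groups compared, and FLA11 without the 5 libraries. In slr-1 at 4 h (1), total count scaling, DESeq2, the suffix term, only the groups compared and the 5 libraries left out gave 2 each, RLE size factors, no filter, the replicate block and an adjusted p under 0.01 gave 0, and 1 library left out 0 to 1. FLA11 was among them as higher with only the groups compared and with the 5 libraries left out. In CASP1::shy2-2/slr-1 at 2 h (0), the suffix term gave 1 and the 5 libraries left out 2. In CASP1::shy2-2/slr-1 at 4 h (1), total count scaling and only the groups compared gave 2, the 5 libraries left out 4, no filter, the replicate block and an adjusted p under 0.01 gave 0, and 1 library left out 0. In the difference between genotypes, the 5 libraries left out gave 1 at 2, 4 and 8 h (0), only the groups compared gave 1 at 4 and 8 h, and at 16 h (5) only the groups compared gave 2 and an adjusted p under 0.01 gave 3, with 4 to 7 when 1 library was left out. Without NAA (1), the 5 libraries left out gave 4, an adjusted p under 0.01 gave 0, and 1 library left out 0 to 1. For all of these the cause was not tested. The replicate block, with the numbers sharing no pairing that the data show, changed only the 2 calls of MYB83 at 4 h.

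Errors were widest for MYB83, at 0.199 to 3.17 CPM, with 0.36 or more on most comparisons. The part of depth in them was not tested. The controls are shared by all times of a genotype. The design holds no genotype without slr-1, sections mix all root tissues, and what the code suffix stands for is unknown.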
